A study of Mus musculus with 8 samples.

Results

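The ganglionic eminences are the ventral part of the embryonic telencephalon and give rise mainly to GABAergic neurons, whereas glutamatergic neurons arise mainly in the overlying pallium. Nuclei with accessible chromatin at glutamatergic genes were examined in single-nucleus ATAC-seq data from the lateral and caudal ganglionic eminences (LGE and CGE). ATAC-seq marks open chromatin, so every value here describes how often a gene's peaks were cut and not how much RNA the gene made. The nuclei were chosen by a ranking within each sample, among nuclei with at least 5000 counts in peaks. For each nucleus, E was the count in peaks over the body or the 2000 bp upstream of Slc17a6, Neurod2, Neurod6, Tbr1, Eomes and Nhlh1. A was the same count for the progenitor genes Hes1, Hes5, Sox2, Notch1, Nes and Vim, and B for the GABAergic genes Dlx5, Dlx6, Gad1, Gad2 and Slc32a1. Nuclei were ordered by (E + 1)/(A + B + E + 3), and the top 8% of each sample, 1490 of 18625 nuclei, are called glutamatergic-ranked nuclei below. The whole series held 39253 nuclei.

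All samples were labelled wild type (WT), brain tissue. LGE and CGE had 2 samples each, all of age E12.5 (embryonic day). CTX (cortex) had replicate 1 of age E12.5 and replicate 2 of age E14.5, and its 694 nuclei ranked by the same rule serve as a comparison. The labels do not say how many embryos went into a sample or whether the 2 samples of a region came from separate litters, so p-values measure only the spread between these samples. Total counts in peaks ranged from 80488152 to 123925674 over the 4 LGE and CGE samples. Their libraries shared 21 to 47 nuclear barcodes per pair of samples, and summed over the 6 pairs 2 barcodes were those of glutamatergic-ranked nuclei in both libraries.

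Glutamatergic neurons load synaptic vesicles with glutamate through the vesicular transporters encoded by Slc17a6 and Slc17a7. In the pallium, proneural factors such as Neurog2 act in progenitors, Eomes marks intermediate progenitors, and Neurod and Nhlh factors and Tbr1 follow as the cells become neurons. The Dlx genes, with Gad1, Gad2 and Slc32a1, mark the GABAergic lineage of the eminences.

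LGE replicate 1 gave 470 glutamatergic-ranked nuclei and LGE replicate 2 gave 369. CGE replicate 1 gave 297 and CGE replicate 2 gave 354. The 8% share is fixed by the rule, so these numbers say nothing about how common such nuclei are. The median E was 10.0, 8, 10.0 and 10.0 counts in LGE replicate 1, LGE replicate 2, CGE replicate 1 and CGE replicate 2, against 2.00, 2.00, 2.00 and 4.00 in the other nuclei of the same samples. The lowest score inside the threshold was 0.370, 0.333, 0.407 and 0.474 in the same order, and the highest score outside it was 0.368, 0.333, 0.407 and 0.474. In LGE replicate 2, 53 nuclei had exactly the threshold score and 10 of them were taken, and 1 of the 369 nuclei taken in that sample had no count in a glutamatergic ranking gene. The scores on either side of the threshold were thus equal or nearly so. Glutamatergic-ranked nuclei were shallower than the others, with median totals of 13489.5, 10911, 13974 and 13590.5 counts against 16326, 15222, 17352 and 16814.

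The levels of the ranking genes describe what was chosen and carry no test. CPM are counts over a gene, scaled to 1000000 counts in peaks of the same sample and class of nuclei. Slc17a6 (chr7:51622006-51671119, GRCm38) had 255 and 272 CPM in the glutamatergic-ranked nuclei of LGE replicates 1 and 2 and 312 and 326 CPM in those of CGE replicates 1 and 2. The other nuclei had 38.6, 33.5, 52.1 and 60.8 CPM. Over the 6 glutamatergic ranking genes, the ratio of mean CPM ran from 2.55 for Eomes to 7.06 for Neurod6. The 6 progenitor ranking genes were 2.33-fold (Vim) to 3.87-fold (Sox2) higher in the other nuclei. The 5 GABAergic ones were 1.76-fold (Gad1) to 2.97-fold (Dlx5) higher there, and Dlx5 and Dlx6 had identical values in 3 of the 4 samples.

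To give each marker a value that it had not itself decided, each glutamatergic gene was left out of the ranking in turn, the nuclei were ranked again and the left-out gene was tested in a fit over all genes. Each of the 6 left-out genes was higher in the high-ranked nuclei, in 4 of 4 samples. Slc17a6 left out of the ranking had 179, 201, 214 and 239 CPM in the high-ranked nuclei of LGE replicate 1, LGE replicate 2, CGE replicate 1 and CGE replicate 2, against 44.5, 37.7, 58.7 and 66.7 CPM in the others. The groups did not overlap, and the log2 fold change was 2.05 ± 0.07 (SE, n = 4 samples; edgeR adjusted p = 8.26e-15). Neurod6, a bHLH factor of postmitotic pallial neurons, rose by 2.36 ± 0.15 on the log2 scale (edgeR adjusted p = 2.43e-10), Neurod2 by 1.95 ± 0.13 (5.76e-10) and Nhlh1 by 1.74 ± 0.11 (7.53e-10). Tbr1, which encodes a T-box factor of early cortical neurons, rose by 1.01 ± 0.06 (2.62e-11). Eomes had the smallest rise, 0.77 ± 0.08 (4.04e-07), with 61.7, 88.4, 51.8 and 83.3 CPM against 30.5, 50.6, 33.9 and 53.4. The ranking without a marker still used the progenitor and GABAergic counts, so the rise of a left-out gene goes with low counts of those sets as well as with the other 5 markers.

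**Figure D1:**
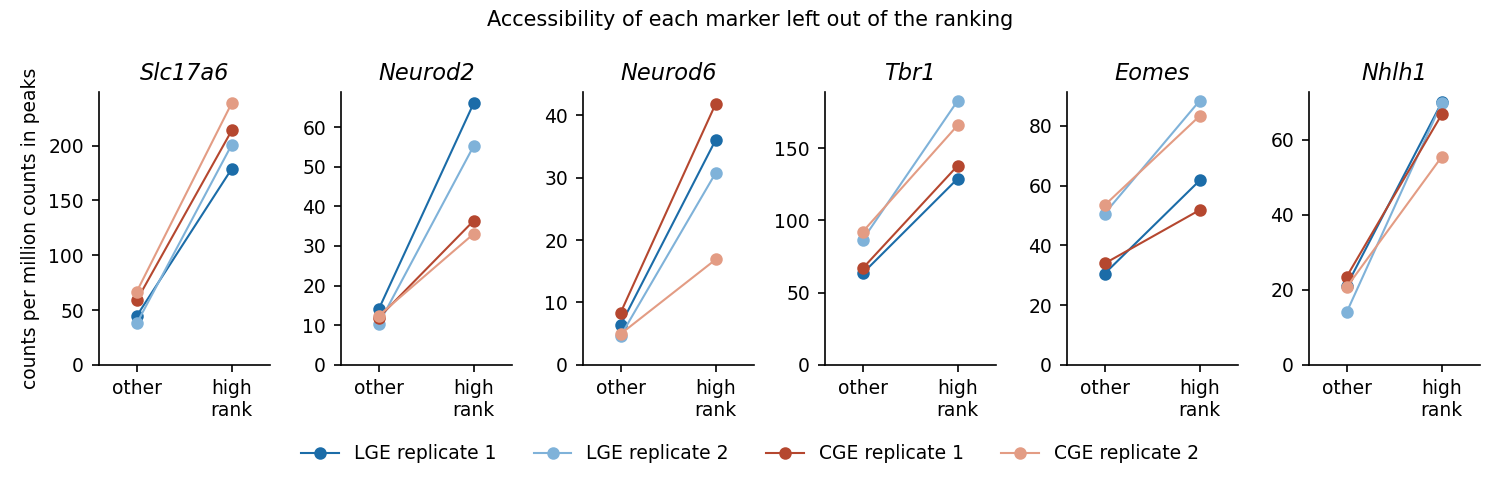
Accessibility (CPM) of each glutamatergic marker in nuclei ranked high without that marker and in the other nuclei, with 1 point per class and sample and a line joining the classes of a sample. All 6 markers are higher in the high-ranked nuclei of all 4 samples, from 16.9 to 41.9 for Neurod6 against 4.65 to 8.37 in the others.

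The nuclei of the 4 samples were also clustered on all regions other than those of the ranking genes. Of 11 clusters, numbers 4 and 6 were glutamatergic-like by a marker list that holds the 6 glutamatergic ranking genes. Raised markers of the list numbered 9 in cluster 4 and only 4 in cluster 6, where at least 3 were needed for the name. Neurod4, Slc17a6, Neurod6, Neurod2 and Nhlh1 were among the 10 genes with the largest fold in cluster 4, and Samd3, Gjd2 and Slc17a6 among those of cluster 6. Slc17a6, Neurod6, Neurod2 and Nhlh1 are ranking genes, so the names of the clusters are not independent of the rule and the shares below are a description. Together these clusters held 1347 of the 1490 glutamatergic-ranked nuclei, 90.4% (exact 95% interval 88.8 to 91.9, which covers counting error only), against 11.7% of the other nuclei. By sample the share was 85.3% in LGE replicate 1, 85.6% in LGE replicate 2, 95.3% in CGE replicate 1 and 98.0% in CGE replicate 2. The clusters also held 2012 nuclei outside the top 8%, so glutamatergic-ranked nuclei were 46.5%, 61.0%, 37.0% and 28.6% of the clusters' nuclei in the same order. The top 8% is thus mostly a part of these clusters, and a smaller part of them in the CGE samples. Of the glutamatergic-ranked nuclei outside them, 26, 60, 11 and 5 lay in clusters 1, 2, 5 and 9, which were GABAergic-like.

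Cluster 4 held 328 of the glutamatergic-ranked nuclei in LGE replicate 1, 158 in LGE replicate 2, 202 in CGE replicate 1 and 135 in CGE replicate 2, and cluster 6 held 73, 158, 81 and 212. Among glutamatergic-ranked nuclei in either cluster, cluster 6 held 18.2% and 28.6% in the replicate 1 samples of LGE and CGE (upper exact 95% bounds 22.3 and 34.3), and 50% and 61.1% in the replicate 2 samples (lower bounds 44.4 and 55.7). These bounds cover counting error only and not the spread between samples. Both replicate 2 samples were above both replicate 1 samples, and with 2 samples a region this was not tested. Over all nuclei of the clusters, Neurod2 had 51.0 ± 17.5 CPM in cluster 4 and 17.4 ± 3.76 in cluster 6 (SD, n = 4 samples), and Neurod6 32.9 ± 11.7 and 9.93 ± 5.79, each higher in cluster 4 in 4 of 4 samples. Slc17a6 had 195 ± 16.0 and 185 ± 20.1 CPM and was higher in cluster 4 in 2 of 4 samples. These are ranking genes, and the values describe the clusters with no test. Notch1 had 241 ± 34.5 CPM in cluster 4 and 135 ± 32.8 in cluster 6.

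**Figure D2:**
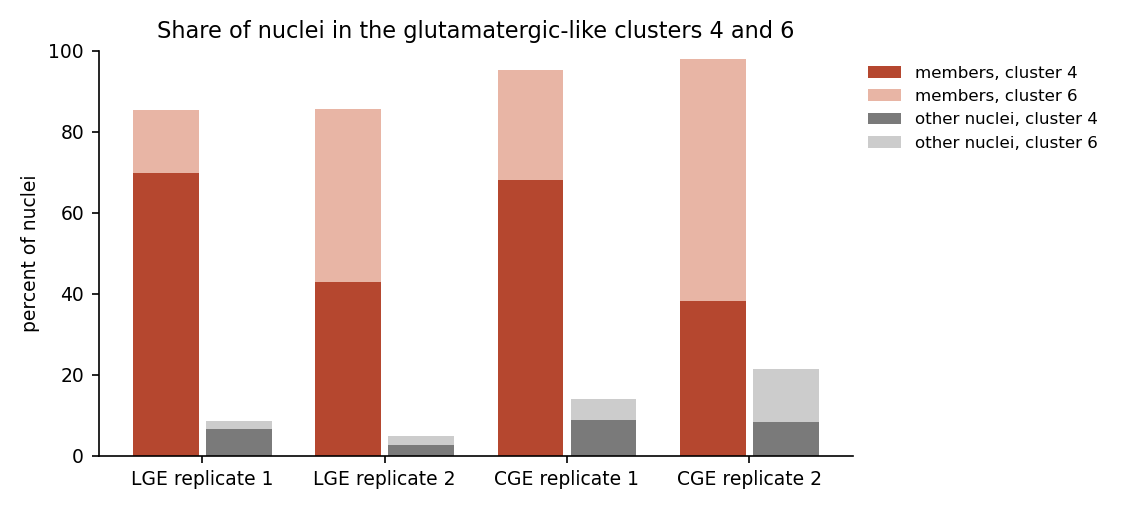
Percent of glutamatergic-ranked nuclei (members, red) and of other nuclei (grey) that fell in the glutamatergic-like clusters 4 (dark) and 6 (light), by sample. The 2 clusters held 85.3% to 98.0% of members and 4.76% to 21.3% of other nuclei, and cluster 6 took a larger part in the replicate 2 samples.

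Of the glutamatergic-ranked nuclei 2.08% were among the 10% of nuclei nearest to simulated doublets, from 0.565% in CGE replicate 2 to 4.04% in LGE replicate 1, against 10.7% of the others. The ranking takes nuclei with few progenitor and GABAergic counts, so this share is not independent of the rule.

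Counts were then summed per gene over the glutamatergic-ranked nuclei and over the other nuclei of each sample, and compared in a fit with sample as a block. The ranking genes and Pank4, which shares a peak with one of them, were left out. Of 16805 genes tested, 2617 (15.6%) were higher and 3199 (19%) lower in glutamatergic-ranked nuclei at an adjusted p of 0.05. The nuclei were selected for high glutamatergic and low progenitor and GABAergic counts, so the direction of genes that accompany those sets is not independent evidence of what the nuclei are. Without the sample block 2501 genes were called.

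Of 20 glutamatergic neuron genes tested outside the ranking, 10 were higher and 6 lower, with a median log2 fold change of 0.09 against -0.01 over all genes. Neurod1, a bHLH factor that follows Neurog2 (its peaks are shared with Cerkl), had 114, 103, 119 and 119 CPM in the glutamatergic-ranked nuclei of LGE replicate 1, LGE replicate 2, CGE replicate 1 and CGE replicate 2, against 58.1, 55.7, 57.5 and 63.4 in the others. The groups did not overlap, and the log2 fold change was 0.97 ± 0.06 (SE; edgeR adjusted p = 1.51e-10). Neurod4 rose by 1.67 ± 0.19 (4.37e-07), Nhlh2 by 1.19 ± 0.09 (8.46e-10) and Slc17a7 by 0.65 ± 0.09 (4.35e-06). When only peaks within 1 kb of a start site were counted, Neurod4 was 0.33 higher and did not pass the test. The largest falls among called genes of the list were at Fezf2, which specifies deep-layer projection neurons (-0.43 ± 0.07, 5.38e-05), Rorb (-0.41 ± 0.07, 7.67e-05) and Nr4a2 (-0.31 ± 0.07, 9.48e-04). Fezf2 had 87.7 to 115 CPM in glutamatergic-ranked nuclei and 127 to 146 CPM in the others, and with matrix entries counted once its fold was -0.15 and not called.

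Of 16 pallial patterning and neurogenic genes 7 were higher and 3 lower, with a median of 0.15. Neurog2, the proneural gene of pallial progenitors, had 89.1, 85.9, 97.9 and 86.7 CPM against 64.0, 58.3, 61.6 and 61.2, in the same order of samples (log2 fold change 0.56 ± 0.06, edgeR adjusted p = 6.09e-07). Emx1, a homeobox gene of the pallium, rose by 0.65 ± 0.08 (7.66e-07), with 54.9 to 70.4 CPM against 35.3 to 40.8. Lhx9 had the largest rise of the list, 0.86 ± 0.06 (5.52e-10). Insm1, which is active in neurogenic progenitors and shares its peak with Cfap61, was at -0.80 ± 0.08 (5.50e-08), Gli3, a mediator of hedgehog signaling, at -0.78 ± 0.07 (2.30e-08) and Pax6 at -0.41 ± 0.06 (2.23e-05).

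Cajal-Retzius cells are early-born, Reln-secreting neurons of the cortical surface. Of 12 genes of these and other early-born neurons, 9 were higher and 2 lower, with a median of 0.41. Reln had 109, 125, 159 and 162 CPM against 82.5, 91.3, 112 and 121 (log2 fold change 0.45 ± 0.06, edgeR adjusted p = 2.68e-06), so the groups overlapped across samples while each sample showed the rise. Calb2 rose by 0.77 ± 0.13 (8.91e-05), and the genes of the Ebf2 and Ebf3 factors by 0.68 ± 0.06 (5.20e-09) and 0.67 ± 0.06 (5.98e-09). Trp73, a defining gene of Cajal-Retzius cells from the cortical hem whose peaks are partly shared with Wrap73, was at 0.15 ± 0.08 and did not pass (0.148).

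Of 11 genes of the ventral pallium and amygdala 2 were higher and 7 lower, with a median of -0.25. The 2 were Lhx9 and Tfap2d, which encodes an AP-2 factor. Tfap2d had 9.32, 24.0, 37.8 and 29.5 CPM in glutamatergic-ranked nuclei of LGE replicate 1, LGE replicate 2, CGE replicate 1 and CGE replicate 2, against 3.84, 10.9, 13.4 and 18.3 (log2 fold change 1.15 ± 0.14, edgeR adjusted p = 1.66e-06). Dbx1, which marks ventral pallial progenitors, was lower at -0.54 ± 0.11 (4.10e-04).

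Of 22 GABAergic and subpallial genes outside the ranking none was higher and 16 were lower, with a median of -0.36. Dlx1 and Dlx2, which share their peaks with each other and Metap1d, were at -1.50 ± 0.09 (edgeR adjusted p = 7.86e-11) and -1.57 ± 0.09 (3.25e-11). Gsx2, a patterning gene of LGE progenitors, was at -1.63 ± 0.11 (2.39e-10) and Six3 at -1.47 ± 0.07 (1.86e-12). Six3 had 73.3, 74.9, 51.7 and 63.5 CPM against 176, 209.7, 158 and 188. Dlx1 had 76.9 to 160.1 CPM in glutamatergic-ranked nuclei and 271 to 384 CPM in the others.

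Of 20 progenitor genes outside the ranking none was higher and 19 were lower, with a median of -0.71. Fabp7, a radial glial gene, had 35.4, 14.8, 35 and 16.8 CPM against 57.3, 57.6, 58.8 and 49.3 (log2 fold change -1.13 ± 0.14, edgeR adjusted p = 1.80e-06). Ddah1 was at -1.49 ± 0.07 (4.16e-12) and Sox1 at -1.40 ± 0.07 (8.92e-12). The groups did not overlap for Fabp7.

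Of 16 pan-neuronal genes 11 were higher and none lower, with a median of 0.28. Ina, which encodes a neuronal intermediate filament and shares peaks with Nt5c2, rose by 1.2 ± 0.09 (edgeR adjusted p = 2.18e-09), Rbfox3 by 0.80 ± 0.06 (6.20e-10) and Stmn2 by 0.73 ± 0.08 (2.94e-07). Dcx, a microtubule-binding protein gene of migrating neurons, rose by 0.55 ± 0.06 (4.84e-07), and Tubb3, with shared peaks, by 0.26 ± 0.06 (0.00264). Of 18 glutamate and GABA receptor and related genes 11 were higher and 2 lower. Gria1, an AMPA receptor subunit gene, rose by 0.81 ± 0.08 (edgeR adjusted p = 4.21e-08). Grik3, a kainate receptor subunit gene, was at -0.56 ± 0.06 (1.92e-07) and Grin2b at -0.50 ± 0.07 (4.25e-06). Grin2b turned to 0.55 when only peaks within 1 kb of a start site were counted, so its lower value rests on peaks in the gene body. Of 20 axon guidance genes 7 were higher and 8 lower, led by Cntn2, a gene of early axons, at 1.05 ± 0.06 (4.04e-11) and Ntn1 at -0.87 ± 0.07 (3.39e-09).

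Markers of other cells that a dissection could include were counted in the same fit, and their part in the results was not tested. Endothelial markers summed to 115 to 162 CPM over the 4 samples in glutamatergic-ranked nuclei and 124 to 162 CPM in the others, and 1 of 5 tested was higher (Cdh5, 0.74 ± 0.20, edgeR adjusted p = 0.00541, and 0.0553 without LGE replicate 1), while Cldn5 was at 0.31 ± 0.15 (0.125). Microglial markers summed to 128 to 157 CPM against 139.5 to 159, with Aif1 and Fcrls at 0, since no peak lay over them, and 2 of 4 tested higher (Csf1r and Tmem119, of which Csf1r lost its call without LGE replicate 1 and without CGE replicate 1). Mural and mesenchymal markers summed to 124 to 168 CPM against 165 to 179.8, with 0 of 7 higher and 2 lower. Erythroid markers summed to 16.3 to 22.6 CPM against 25.4 to 32.6, with Hba-a1, Hbb-bs and Hbb-bt at 0, again with no peak over them, and the 1 tested was lower. Cortical hem markers summed to 185 to 207 CPM against 178 to 237, with 0 of 7 higher and 2 lower (Ttr and Wnt8b, the latter at 0.21 with peaks within 1 kb of a start site alone and not called without CGE replicate 1), and Lmx1a was at 0.09 ± 0.07 (0.337). Diencephalic and hypothalamic markers summed to 1025 to 1208 CPM against 1203 to 1537, with 2 of 15 higher and 7 lower. Pou4f1 (0.30 ± 0.08, edgeR adjusted p = 0.00462) and Rora (0.20, and -0.25 with peaks within 1 kb of a start site alone) were the 2 higher, and Pou4f1 was not called without LGE replicate 1. Tcf7l2 was lower at -0.88 ± 0.06 (7.53e-10) and Gbx2 was at -0.07 ± 0.11 (0.667). Cluster 3, of 2341 nuclei, was named for diencephalic or hypothalamic markers and held 11 glutamatergic-ranked nuclei. Cluster 10, of 214 nuclei, was named for endothelial markers and held 3. Nearly all nuclei of both clusters are thus among the other nuclei, whose sums include them.

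Largest folds were taken among called genes with peaks and the same direction in every sample and a mean of at least 10 CPM. The genes so named lay outside the lists above. The mean covers both classes of nuclei, so a gene with a low level in the other nuclei could pass through the glutamatergic-ranked nuclei alone. The 5 largest rises had means of 3.01 to 7.47 CPM in the other nuclei. The largest rise was at Samd3 (chr10:26229707-26272172), with 20.7, 39.2, 22.7 and 32.2 CPM in glutamatergic-ranked nuclei of LGE replicate 1, LGE replicate 2, CGE replicate 1 and CGE replicate 2 against 2.37, 1.51, 3.85 and 4.66 (log2 fold change 3.27 ± 0.25, edgeR adjusted p = 1.75e-09). It rests on 2 to 3 peaks a sample. 1700012A03Rik rose by 2.99 ± 0.14 (1.86e-12), Gm12695 by 2.77 ± 0.19 (3.36e-10), Krtap16-1 by 2.53 ± 0.21 (4.89e-09) and Rgs21 by 2.24 ± 0.20 (2.19e-08). A peak in a gene's body may belong to a regulatory element of another gene, and these folds name the place of the peaks and not a gene known to be active. The largest falls were at Mlc1 (-2.67 ± 0.13, 2.59e-12), Trp63 (-2.20 ± 0.12, 3.01e-11), Gm17387 (-2.18 ± 0.14, 9.44e-11), Helt (-2.10 ± 0.12, 2.61e-11) and Atp1a4 (-2.05 ± 0.15, 1.01e-09). Mlc1 had 4.10 to 11.5 CPM in glutamatergic-ranked nuclei and 38.5 to 56.9 CPM in the others.

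To set glutamatergic-ranked nuclei against neurons of the other lineage, they were compared with the 1490 remaining nuclei ranked highest by (B + 1)/(A + B + E + 3), 8% of each sample. Both comparisons share the glutamatergic-ranked nuclei. Each class was selected for high counts of its own ranking genes and low counts of the other ranking genes. The direction of genes that accompany those sets is therefore not independent evidence of what the nuclei are. Of 16028 genes 1320 (8.24%) were higher and 868 (5.42%) lower. Pallial genes differed most as a list, with 14 of 16 higher, 1 lower and a median log2 fold change of 0.93 against -0.02 over all genes. Neurog2 had 89.1, 85.9, 97.9 and 86.7 CPM against 41.9, 42.8, 34.9 and 26.3 in GABAergic-ranked nuclei (log2 fold change 1.35 ± 0.11, edgeR adjusted p = 1.13e-08), with no overlap. Lhx9 was higher by 1.34 ± 0.10 (2.36e-09), Emx2 by 1.28 ± 0.12 (5.28e-08) and Emx1 by 0.87 ± 0.10 (1.72e-06). Emx2 was at -0.15 ± 0.06 (0.0724) against all other nuclei, among which progenitors are counted.

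Of 19 glutamatergic neuron genes 12 were higher than in GABAergic-ranked nuclei and 1 lower. Neurod4 was higher by 3.65 ± 0.35 (edgeR adjusted p = 8.49e-08), Neurod1 by 1.55 ± 0.09 (6.11e-11), Nhlh2 by 1.45 ± 0.13 (1.97e-08) and Fezf2 by 1.02 ± 0.10 (7.36e-08). Fezf2 was thus above GABAergic-ranked nuclei and below the rest of the sample. Of 12 Cajal-Retzius and early-born neuron genes 8 were higher and 1 lower, with Ebf2 at 1.16 ± 0.08 (1.01e-09), Ebf3 at 1.03 ± 0.08 (2.24e-09) and Reln at -0.21 ± 0.09 (0.148). Of 11 ventral pallium and amygdala genes 7 were higher and none lower, with Tfap2d at 1.08 ± 0.18 (1.80e-04) and Dbx1 at 0.55 ± 0.14 (0.00753). The call of Dbx1 was lost when 1 sample was left out, with edgeR adjusted p up to 0.0561. Of 22 GABAergic genes none was higher and 10 were lower, led by Dlx2 at -1.67 ± 0.10 (1.69e-10) and Dlx1 at -1.57 ± 0.10 (5.19e-10). Both classes were selected on glutamatergic and GABAergic counts, so the direction of the GABAergic and glutamatergic lists is not independent of the rule. Of 20 progenitor genes 6 were higher and 1 lower, with Fabp7 at 1.12 ± 0.18 (8.45e-05). Pan-neuronal genes gave 3 of 16 higher and 2 lower, with a median of 0.04, and Dcx at 0.16 ± 0.08 (0.229). Of 18 glutamate and GABA receptor and related genes 1 was higher and 3 lower, with a median of -0.02 and Gria1 at -0.03 ± 0.12 (0.895).

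**Figure D3:**
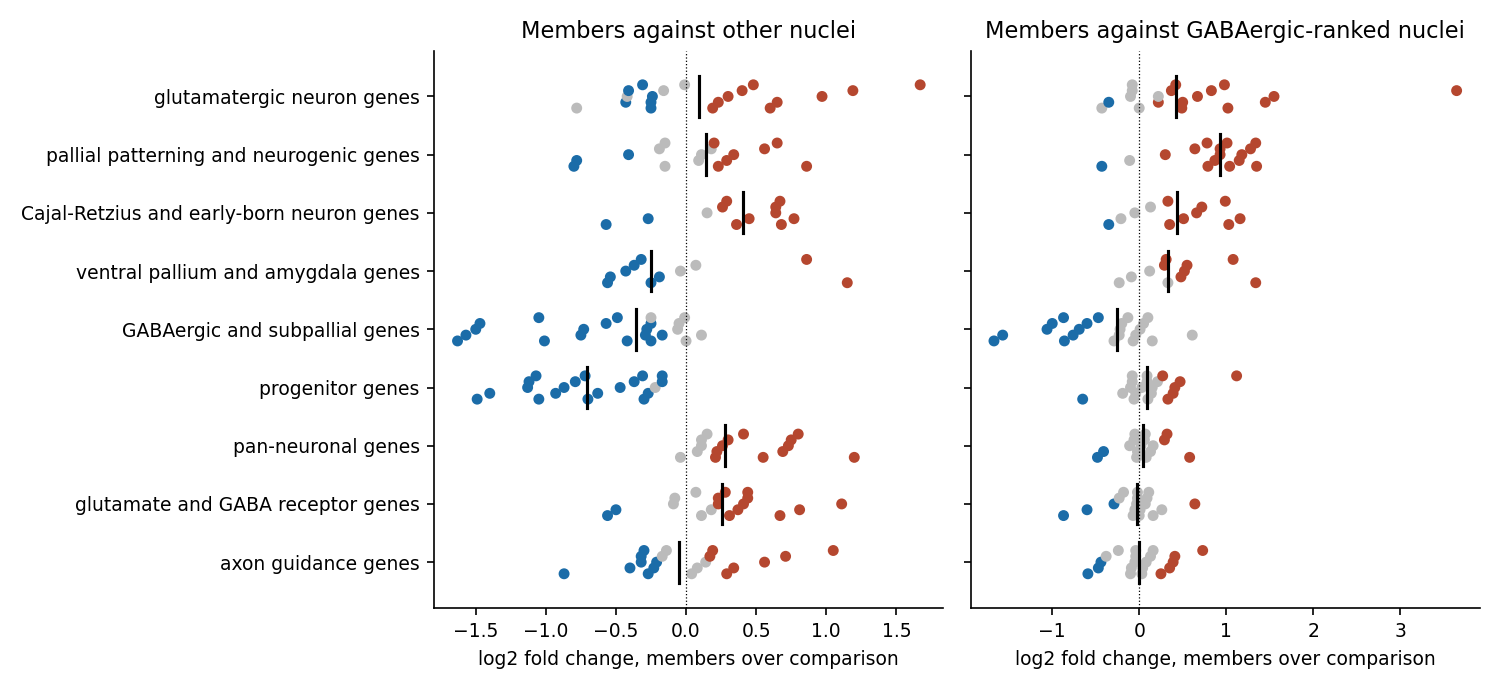
Log2 fold change of each gene of 9 lists in glutamatergic-ranked nuclei (members) over other nuclei (left) and over GABAergic-ranked nuclei (right). Each point is a gene, colored where it passed the test (red higher, blue lower, grey not called), and bars mark list medians. Pallial genes have a median of 0.15 on the left and 0.93 on the right, and progenitor genes -0.71 and 0.10.

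Markers of other cells also differed from GABAergic-ranked nuclei, and their part in this comparison was not tested. Of 5 endothelial markers 2 were higher, Cdh5 (1.24 ± 0.29, edgeR adjusted p = 0.00507) and Kdr (0.69 ± 0.16, 0.00356), and the list summed to 121 to 157 CPM in GABAergic-ranked nuclei. Of 4 microglial markers 1 was higher, Csf1r (1.44 ± 0.25, 2.68e-04), with a sum of 114 to 143 CPM. Of 6 mural and mesenchymal markers Pdgfrb was higher (0.52 ± 0.13, 0.00739, not called without LGE replicate 1) and Col1a2 lower (-0.93 ± 0.16, 2.26e-04), with a sum of 145 to 149 CPM. Of 7 cortical hem markers 1 was higher, Lmx1a (0.41 ± 0.10, 0.00491), with a sum of 164 to 203 CPM, and the 1 erythroid marker tested was not called, with a sum of 14.8 to 27.5 CPM. Diencephalic and hypothalamic markers gave 3 of 15 higher and none lower, with a median of 0.19 and a sum of 966 to 1151 CPM.

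Largest folds against GABAergic-ranked nuclei were taken under the same conditions. The genes with the largest rise were Samd3 (4.66 ± 0.34, edgeR adjusted p = 1.92e-09), 1700012A03Rik (4.64 ± 0.24, 1.15e-11), Gm12695 (4.24 ± 0.28, 5.19e-10), Neurod4 and Zc2hc1b (3.55 ± 0.29, 6.48e-09). Samd3 and 1700012A03Rik had 0 CPM in the GABAergic-ranked nuclei of LGE replicate 2. Peaks in Il7r were lowest, with 8.06, 0.897, 1.96 and 2.34 CPM against 30.7, 21.6, 23.9 and 32.7 (-3.00 ± 0.28, 6.46e-08), followed by Fap (-2.61 ± 0.29, 9.86e-07), Olfr452 (-2.42 ± 0.24, 1.81e-07), Rag1 with shared peaks (-2.36 ± 0.23, 1.15e-07) and Cpb2 (-2.19 ± 0.26, 1.81e-06). Il7r and Rag1 are best known from lymphocytes, and each rests here on 1 or 2 peaks.

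Single regions were tested on peaks merged over the 4 samples. Of 92976 regions with a peak in all 4 samples 15776 (17%) were higher and 19222 (20.7%) lower. Of the regions called higher 87.7% lay over 1000 bp from a start site, against 82.7% of those called lower and 80.5% of all tested. The 5 distal regions with the largest rise and the 3 with the largest fall were taken by rule. Sequences are shown for the intergenic ones among the 5, and for 1 region with a large fall, from the GRCm38 plus strand at the center of each region. Capitals mark 4 motifs on either strand. CAGATG and CAGCTG are forms of the E-box that bHLH factors such as the Neurod family bind. The letters GGTGTGA are the core bound by T-box factors such as Tbr1 and Eomes. The letters TAATTA are a homeodomain core.
chr10:84358029-84358328: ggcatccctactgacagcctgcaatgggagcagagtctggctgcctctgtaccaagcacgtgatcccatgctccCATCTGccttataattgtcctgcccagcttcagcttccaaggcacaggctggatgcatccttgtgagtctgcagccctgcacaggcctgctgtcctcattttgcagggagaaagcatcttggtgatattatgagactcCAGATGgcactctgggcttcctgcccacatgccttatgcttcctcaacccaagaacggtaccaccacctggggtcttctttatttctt
chr16:5431185-5431484: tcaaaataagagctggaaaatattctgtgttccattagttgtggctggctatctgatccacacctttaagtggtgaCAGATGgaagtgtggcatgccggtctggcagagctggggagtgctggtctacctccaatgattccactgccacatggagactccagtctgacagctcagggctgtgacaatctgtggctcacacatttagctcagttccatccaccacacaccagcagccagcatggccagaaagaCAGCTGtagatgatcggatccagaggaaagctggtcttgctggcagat
chr4:82226583-82226882: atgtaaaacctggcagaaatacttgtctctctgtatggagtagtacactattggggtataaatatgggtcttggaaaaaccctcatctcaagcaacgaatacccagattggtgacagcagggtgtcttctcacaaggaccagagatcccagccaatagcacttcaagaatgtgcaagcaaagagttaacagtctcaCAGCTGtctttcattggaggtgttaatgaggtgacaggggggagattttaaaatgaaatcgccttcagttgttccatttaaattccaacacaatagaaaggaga
chr3:66194188-66194487: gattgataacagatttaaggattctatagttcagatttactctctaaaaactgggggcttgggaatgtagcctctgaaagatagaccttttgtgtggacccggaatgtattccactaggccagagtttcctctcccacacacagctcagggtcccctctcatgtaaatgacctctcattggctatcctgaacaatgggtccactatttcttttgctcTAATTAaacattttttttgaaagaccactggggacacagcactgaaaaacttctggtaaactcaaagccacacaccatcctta

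The region at chr10:84357857-84358500 is intergenic, and the closest start site, 33888 bp away, belongs to Nuak1. It had 30.7, 12.6, 16.6 and 4.30 CPM in glutamatergic-ranked nuclei of LGE replicate 1, LGE replicate 2, CGE replicate 1 and CGE replicate 2, against 2.13, 0.570, 2.35 and 0.608 (log2 fold change 3.50 ± 0.28, edgeR adjusted p = 3.08e-08). Its level was lower in both replicate 2 samples, in both classes of nuclei. The shown sequence holds CAGATG or its reverse complement 2 times. The region at chr16:5431038-5431631 is intergenic, 175055 bp from the closest annotated transcript start of Eef2kmt, and had 11.3, 12.3, 15.9 and 2.54 CPM against 1.18, 0.464, 1.61 and 0.438 (3.48 ± 0.33, 2.06e-07). The region at chr4:82226363-82227103 lies 272213 bp from the closest annotated transcript start of Nfib (body chr4:82290173-82705750, minus strand), which encodes a nuclear factor I protein. It had 17.3, 12.3, 14.1 and 11.7 CPM against 1.60, 0.596, 1.73 and 1.36 (3.45 ± 0.26, 1.82e-08). Its sequence holds CAGCTG 1 time and no CAGATG.

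The other 2 overlap annotated exons, of P3h2 (chr16:25960191-25960804, 3.51 ± 0.29, edgeR adjusted p = 4.14e-08) and Prune2 (chr19:17168121-17168745, 3.46 ± 0.24, 8.33e-09). Their central 300 bases hold CAGATG 3 and 2 times on either strand. The largest fall was in an intron of Veph1 at chr3:66193712-66194963, with 3.53, 2.24, 1.17 and 0 CPM against 32.1, 32.7, 30.5 and 33.5 (-4.15 ± 0.31, 1.57e-08). Its sequence holds TAATTA 1 time and neither CAGATG nor CAGCTG. The other 2 were intergenic, at chr5:10592245-10593010 (-4.14 ± 0.32, 2.32e-08) and chr6:5470347-5471367 near Pdk4 (-3.63 ± 0.34, 2.23e-07).

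The letters were then counted in the central 300 bases of 74873 distal regions. CAGATG on either strand was in 37.2% of the 13825 regions called higher, 19.6% of the 15903 called lower and 25.5% of all. CAGCTG was in 28.4%, 20.7% and 22.9%, and GGTGTGA in 7.66%, 2.93% and 4.48%. TAATTA was in 20.3%, 15.1% and 14.2%, so it was above the share of all regions in both called classes. ACAAAG, the core bound by SOX factors, was in 25.6%, 34.8% and 29.0%. The 6-letter and 7-letter patterns can overlap one another, and these shares are descriptions with no test.

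The deposited motif counts, which sum counts over all peaks that hold a motif, gave smaller differences. They include peaks of the ranking genes, so the motif values are not independent of the rule. Of 579 motifs 118 (20.4%) were higher and 147 (25.4%) lower, with log2 fold changes from -0.37 to 0.36. Motifs of 1 family can share sites, and the overlap of their sites was not measured. Without the sample block 0 motifs were called by edgeR, with 72 at an unadjusted p under 0.05, and without CGE replicate 2 the higher calls were 71.8% of the calls, against 44.5% with all samples. Among called motifs that moved the same way in all 4 samples, the largest rises were ATF4 (0.36 ± 0.05, edgeR adjusted p = 8.47e-04), the bHLH motif BHLHE22 (0.32 ± 0.04, 3.39e-04), the T-box motif EOMES (0.31 ± 0.04, 3.39e-04), NEUROD2 (0.29 ± 0.03, 2.96e-04) and Neurog1 (0.26 ± 0.04, 5.09e-04). NEUROD2 motif counts were 318, 305, 303 and 255 per 1000000 motif counts in glutamatergic-ranked nuclei of LGE replicate 1, LGE replicate 2, CGE replicate 1 and CGE replicate 2, against 247, 264, 232 and 227. The largest falls were Pax6 (-0.30 ± 0.04, 8.25e-04), Pou5f1::Sox2 (-0.27 ± 0.02, 9.58e-05), E2F2 (-0.25 ± 0.03, 2.28e-04), SCRT2 (-0.24 ± 0.02, 9.58e-05) and TEAD2 (-0.21 ± 0.02, 9.58e-05).

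Of 26 motifs of the list of forebrain factors 13 were higher and 2 lower, with a median of 0.04. Atoh1 (0.25 ± 0.03, edgeR adjusted p = 4.36e-04), EMX2 (0.20 ± 0.03, 0.00174), LHX2 (0.18 ± 0.03, 6.63e-04) and NEUROG2 (0.15 ± 0.03, 0.00233) followed EOMES and NEUROD2. SOX9 (-0.08 ± 0.02, 0.00495) and MEF2C (-0.06 ± 0.02, 0.0101) were lower. CTCF, a chromatin insulator factor, was at 0.02 ± 0.02 (0.471), and NHLH1 at 0.02 ± 0.02 (0.429). The DLX6, Dlx1 and Dlx2 motifs were slightly higher, by 0.08 ± 0.02 (0.00766), 0.07 ± 0.02 (0.0420) and 0.05 ± 0.02 (0.0391), and each of these 3 calls was lost when 1 sample was left out, with adjusted p up to 0.0538, 0.161 and 0.167. The calls of MEF2C, LHX9 and RFX4 were lost in the same way, with adjusted p up to 0.0944, 0.0570 and 0.0858.

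**Figure D4:**
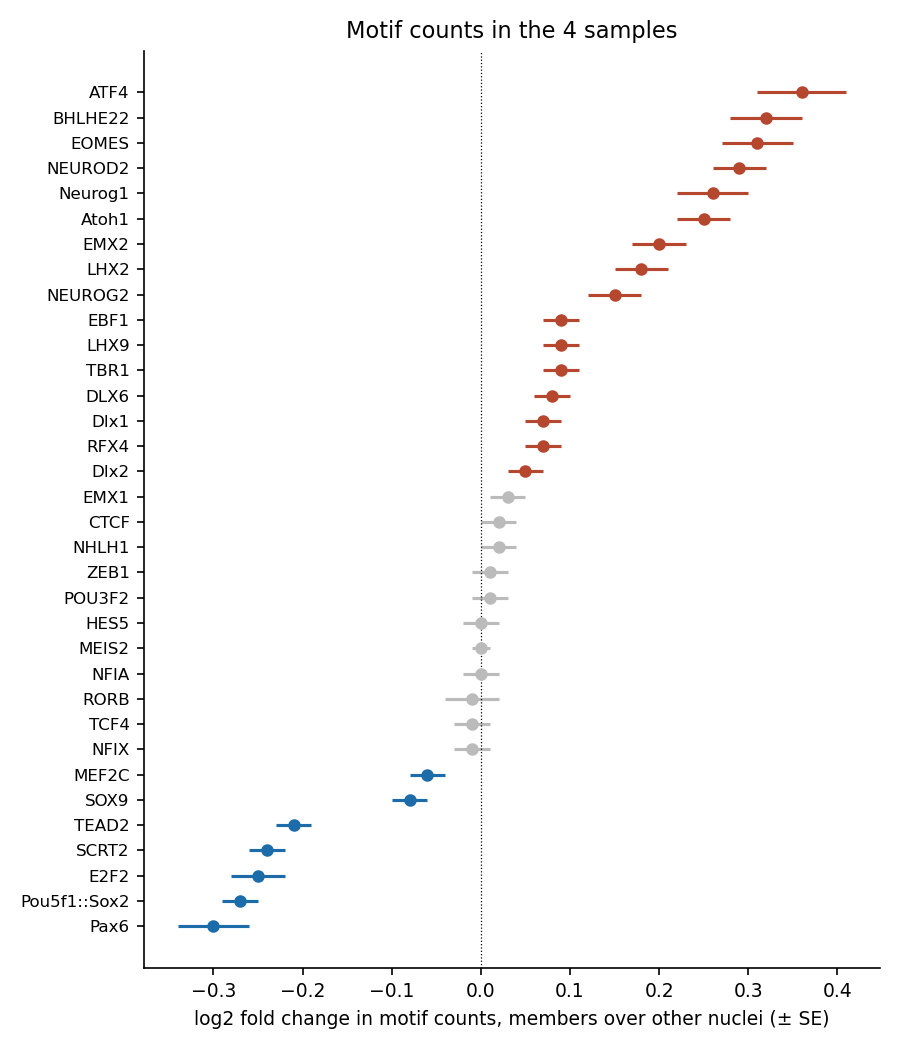
Log2 fold change in motif counts in glutamatergic-ranked nuclei (members) over other nuclei, with SE bars, for the list of forebrain factors and the 5 largest changes in each direction. Red motifs were called higher, blue lower and grey were not called. Values run from -0.30 for Pax6 to 0.36 for ATF4.

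LGE and CGE glutamatergic-ranked nuclei were compared through their ratio to the other nuclei of the same sample, which asks whether any gene sets them further apart from the rest in one region. Of 16805 genes 0 (0%) passed with edgeR, with 1151 at an unadjusted p under 0.05 and a smallest adjusted p of 0.0558, and DESeq2 called 16. With the replicate number as a block 32 genes were called, and there were 28 and 19 calls without replicate 1 or 2 of LGE and 79 and 7 without replicate 1 or 2 of CGE, so the count of 0 depends on the fit. With 2 samples a region, a p above the threshold does not show that the regions are alike.

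Glutamatergic-ranked nuclei of LGE and CGE were last compared with CTX nuclei ranked by the same rule, on regions with a peak in all 6 samples, so CPM here are on another scale than above. The lowest score taken was 0.692 in CTX replicate 1, above that of all LGE and CGE samples, and 0.455 in CTX replicate 2, which lies below that of CGE replicate 2. CTX replicate 2 is also older, so age and region cannot be told apart in it. Of 16049 genes 10 (0.0623%) were higher and 44 (0.274%) lower in LGE and CGE. With the replicate number as a block 270 genes were called, and DESeq2 called 225. Emx1 had 70.0, 87.3, 76.4 and 69.8 CPM in LGE replicate 1, LGE replicate 2, CGE replicate 1 and CGE replicate 2, against 181 and 144 in CTX replicates 1 and 2 (log2 fold change -1.19 ± 0.17, edgeR adjusted p = 0.0127). Slc17a7 was lower by the same test at -1.08 ± 0.17 (0.0186) and Fezf2 at -1.0 ± 0.16 (0.0193). Without CTX replicate 1, which leaves the older sample alone, Emx1 was at -0.99, Slc17a7 at -0.96 and Fezf2 at -1.01, and none of them passed. Slc17a7 and Fezf2 also missed the threshold without LGE replicate 2 and without CGE replicate 2, and Slc17a7 without LGE replicate 1. Without LGE replicate 2, 26 genes were called, without CGE replicate 1 105, without CGE replicate 2 33 and without CTX replicate 2 259, against 54 with all samples. Without CTX replicate 1, 62 were called, of which 17 were among the 54. Neurog2 was at 0.01 (0.997) and Lhx9 at 0.07 (0.985), and 0 of 12 Cajal-Retzius and early-born neuron genes and 0 of 11 ventral pallium and amygdala genes were called. Of 19 glutamatergic neuron genes 0 were higher and 2 lower, and of 16 pallial genes 0 were higher and 1 lower. Over all genes only 0.336% were called, so few or no calls in a short list does not show that the nuclei are alike.

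Largest folds against CTX were taken among called genes with no overlap between CTX and the other samples and a mean of at least 10 CPM. The mean covers all 6 samples, so a gene could pass through 1 group alone. Gast and Gm16223 had means of 2.96 and 3.18 CPM in CTX. Serpinb1b, Slc6a13 and Abca14 had 2.93, 4.01 and 6.95 CPM in LGE and CGE. The condition of no overlap used the same values as the test. The genes with the largest falls were Serpinb1b (-3.28 ± 0.36, edgeR adjusted p = 0.00674), Slc6a13 (-2.74 ± 0.47, 0.0304), Abca14 (-2.56 ± 0.39, 0.0167) and Ubxn10 (-2.15 ± 0.23, 0.00674), the last 2 with peaks shared with Crym and Pla2g2c, and Tmem91 (-2.07 ± 0.35, 0.0278). The largest rises were at Gast (3.19 ± 0.44, 0.0109), Gm16223 (2.36 ± 0.37, 0.0193), Lor (1.76 ± 0.24, 0.0109), Kncn with shared peaks (1.58 ± 0.23, 0.0146) and Fignl2 (1.58 ± 0.22, 0.0118). The following genes were chosen after their values were seen. The nuclear factor I genes Nfia, Nfib and Nfix, which act in glial and neuronal differentiation and of which Nfia and Nfix share some peaks with other genes, were lower at -1.47 ± 0.19 (edgeR adjusted p = 0.0104), -1.73 ± 0.21 (0.00901) and -1.90 ± 0.22 (0.00901). Nfib had 387, 308, 384 and 239 CPM in LGE and CGE and 1192 and 877 in CTX. Gjd2, a gap junction gene of neurons, was higher at 1.32 ± 0.24 (0.0426) and Scn3a, a sodium channel gene of embryonic neurons, at 1.42 ± 0.24 (0.0254). Against GABAergic-ranked nuclei Gjd2 was called higher at 1.29 and Scn3a lower at -0.44. Gjd2 was also among the 10 leading genes of cluster 6. Without CTX replicate 1 the calls of Slc6a13, Tmem91, Gast, Gm16223, Kncn, Fignl2 and Scn3a were lost, and Gjd2 lost its call without CTX replicate 2, while Serpinb1b, Abca14, Ubxn10, Lor, Nfia, Nfib and Nfix passed without each sample in turn. With 1 CTX sample left out, the other is assumed to vary like the LGE and CGE samples, so a pass there does not rest on CTX replicates. Slc6a13, Gm16223, Gjd2 and Scn3a also lost theirs without some LGE or CGE samples.

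**Figure D5:**
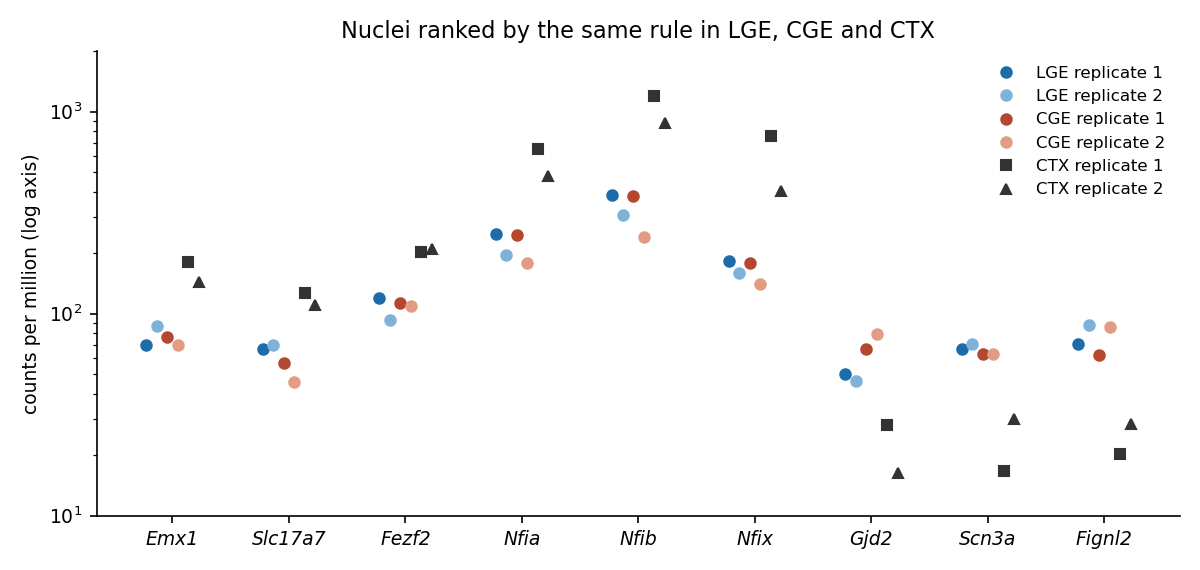
CPM (log axis) of 9 genes in nuclei ranked by the same rule, with 1 point per sample of LGE (blue circles), CGE (red circles) and CTX (square for replicate 1, triangle for the older replicate 2). For the first 6 genes both CTX samples lie above all LGE and CGE samples, and for the last 3 below them.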

How the data were processed

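The data are single-nucleus ATAC-seq of wild-type mouse forebrain regions. The submitters' processing notes name Cell Ranger ATAC 1.2.0 and GRCm38 (mm10). The authors deposited raw counts per peak and nucleus and raw counts per motif and nucleus, with peaks called per sample. Peaks lay within the GRCm38 chromosome lengths. The sources used here do not give the barcode filter applied before deposit. Barcodes with at least 5000 counts were kept. Most deposited counts were even, which is what tallying both fragment ends would leave, so they are not independent molecules and intervals cover counting error only. Because each sample has its own peaks, gene tests compare classes of nuclei within samples, and levels of a gene in different samples can differ with the peaks called. The region test, the clustering and the CTX comparison used peaks merged across samples.

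Counts were summed per sample and class of nuclei over 21911 protein-coding genes of GENCODE release M21 (body and 2000 bp upstream), over regions and over motifs. A peak over several genes counts for each. Sums were tested with edgeR 4.0.16 in R 4.3.3 (glmQLFit, glmQLFTest, TMM, filterByExpr), with sample as a block. The LGE and CGE ratios were compared through an interaction, and the CTX contrast was fitted on 6 samples without a block. A feature was called when its p, adjusted by Benjamini-Hochberg across the whole fit, was at most 0.05. Scripts were tested on simulated counts. Clusters used TF-IDF, 30 components, 20 neighbors and Leiden clustering at resolution 0.5 (leidenalg 0.10.2, scikit-learn 1.9.0). A cluster was named for a list when at least 3 markers had 10 CPM and a log2 fold above 0.5, with a mean above 0.25, a rule set after clusters had been seen. No doublets were removed in the main results.

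Members and gene lists were chosen with earlier results of these data known. Genes are named by rule: per list, the called members with the largest fold and fixed defining genes, and per comparison the 5 largest folds in each direction among called genes that moved the same way in every sample, had peaks in every sample and a mean of at least 10 CPM. A gene that the rule names is not reported here. Regions needed a mean of at least 5 CPM over both classes of nuclei and over 1000 bp to a start site. A region with a low level in one class could thus pass through the other class alone. The named rises had means of 0.913 to 1.55 CPM in the other nuclei. The named falls had means of 0.755 to 1.74 CPM in glutamatergic-ranked nuclei. The size of these folds therefore rests on low levels in one class. Alternatives were DESeq2 1.42.0, no filter, samples left out, other blocks, thresholds, depths and peak sets.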

Additional observations from a re-analysis of the deposited data

How the results depend on the processing

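The 6 left-out markers stayed higher and past the threshold in the alternatives run, leaving out each sample in turn among them, a choice made after seeing the data. Leaving out 1 sample gave Slc17a6 1.92 to 2.11, Neurod2 1.83 to 2.13, Neurod6 2.27 to 2.53, Tbr1 1.00 to 1.08, Eomes 0.69 to 0.85 and Nhlh1 1.60 to 1.86. The share of glutamatergic-ranked nuclei in glutamatergic-like clusters was 90.4%, 90.5% at resolution 1.0 and 90.7% with 15 components. Against other nuclei, leaving out a sample gave 4496 to 5154 called genes, 27344 to 31727 regions and 188 to 231 motifs, and 1696 to 1855 genes against GABAergic-ranked nuclei.

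The number of calls depended on the sample block. With no replicate block there were 2501 called genes against other nuclei (5816 with it), 895 against GABAergic-ranked nuclei (2188 with it), and 0 motifs (265 with it). The replicate numbers of LGE and CGE are not stated to mark a shared litter or day; the differences between replicates 1 and 2 correlated at 0.146 over 14265 genes. With the replicate block the LGE and CGE ratios differed at 32 genes and the CTX comparison at 270. DESeq2 called 16 and 225. Leaving out a sample gave 7 to 79 and 26 to 259. With peaks within 1 kb of a start site, Grin2b was 0.55, Wnt8b 0.21 and Rora -0.25 against other nuclei, each with the opposite sign to the value over all peaks. Of the values of single named genes under the alternatives, 1137 of 1175 kept direction and side of the threshold against other nuclei, 795 of 857 against GABAergic-ranked nuclei and 673 of 711 against CTX; the cause of the changes was not tested. The median region shifted to -0.16 with the top 4% of nuclei, against -0.08, and 40.8% of the region calls were then higher.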
